A study of Mus musculus with 9 samples.

Results

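The genes described here are 10 markers of the pyramidal neurons in the hippocampal fields CA1, CA2 and CA3, chosen by name, with earlier results of these data known. Of these, 5 are used as CA1 markers (Wfs1, Mpped1, Fibcd1, Spink8 and Pou3f1), 3 as CA2 markers (Rgs14, Pcp4 and Amigo2) and 2 as CA3 markers (Bok and Nectin3). They are 10 of the 48709 genes in the count tables, and all 10 were among the 17361 genes tested. Exonic reads were counted in 9 RNA-seq libraries from neuronal nuclei, which had been sorted from frozen mouse hippocampus after staining for NeuN, a nuclear protein of mature neurons. The groups were vehicle-treated wild-type (WT) mice, vehicle-treated Tg4-42 mice and caffeine-treated Tg4-42 mice, with 3 libraries each. Tg4-42 mice were homozygous for a transgene in which the neuronal murine Thy1 promoter drives human amyloid-beta 4-42 (Aβ4-42, an N-terminally truncated amyloid peptide), on a C57BL/6J background, and WT mice carried no transgene. Caffeine was given in the drinking water at 300 mg/l for 4 months, starting at 2 months of age, vehicle-treated mice drank tap water, and all groups were 6 months old at the end. The labels name caffeine only for the treated group, so vehicle is taken from the study's methods, and there was no caffeine-treated WT group. The genotype label of the vehicle-treated Tg4-42 libraries reads APP transgenic, whereas the study describes Tg4-42 mice as not overexpressing human APP, the amyloid precursor protein. The line is described here as in the study. On the number of mice whose nuclei were isolated the sources differ, with 6 in each group per the labels and 3 per the methods, which matches the 3 libraries per group. The p-values measure the spread between libraries.

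The hippocampus passes signals from the dentate gyrus to the large pyramidal cells of CA3, whose axons reach CA1, the main output field, while the small field CA2 lies between them. The pyramidal cells of each field express their own sets of genes, and such markers let the fields be told apart in RNA from mixed nuclei. Several markers are not confined to the field they are used for: Wfs1 and Mpped1 are also expressed by neurons of the neocortex, and Amigo2 also marks part of CA3. Tg4-42 mice are known for a loss of CA1 pyramidal neurons, which gives the comparison of these genes between groups its interest. In RNA from pooled nuclei, fewer nuclei of a cell type and less RNA per nucleus cannot be told apart.

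The libraries held 9342945 to 16376922 counts over all genes, and each of the 10 markers had at least 52 counts in every library. Values below are in CPM, counts per 1000000 counts of the library, with library totals scaled by TMM factors. Slc17a7, the vesicular glutamate transporter of excitatory neurons, was at 549 to 930 CPM, and the endothelial markers Cldn5, Flt1 and Pecam1 were too low to be tested. In the library names, replicates 1 and 2 of each group came from lane 6 of the sequencer and replicate 3 from lane 7, so lane and replicate 3 cannot be told apart. Replicate 3 of both vehicle groups had the highest counts of neocortical genes, with summed CPM of 178 in WT and 187 in vehicle-treated Tg4-42 for the 7 neocortical markers, against 80.1 to 148 in the other 7 libraries.

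The levels of the markers were first compared per exon length, as TPM, in which counts are divided by exon length and scaled to the same total in every library. In WT mice, the CA1 marker Spink8 had the highest mean level (216 TPM ± 71.3, SD, n = 3), followed by Wfs1 (196 TPM ± 20.9), the CA2 marker Pcp4 (191 TPM ± 15.5) and Mpped1 (176 TPM ± 7.03). The ranges of neighbours in this order overlapped from Spink8 to Mpped1, whereas Mpped1 lay above Fibcd1 (120 TPM ± 50.1) without overlap. Rgs14 (108 TPM ± 17.4) and Bok (83 TPM ± 13.3) overlapped with their neighbours above. Amigo2 was lower (25.4 TPM ± 10.5) with no overlap with Bok, and Nectin3 (12 TPM ± 2.98) and Pou3f1 (11.8 TPM ± 3.43) were lowest and did not differ beyond their spread. In caffeine-treated Tg4-42 mice Pcp4 had the highest mean (206 TPM ± 49.4), and Wfs1 (121 TPM ± 23.9) and Mpped1 (126 TPM ± 9.45) had means between those of Rgs14 (130 TPM ± 24.0) and Fibcd1 (113 TPM ± 21.3), with overlap. Thus the CA1 markers spanned the whole range of levels, from the top of the order to its end.

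**Figure D1:**
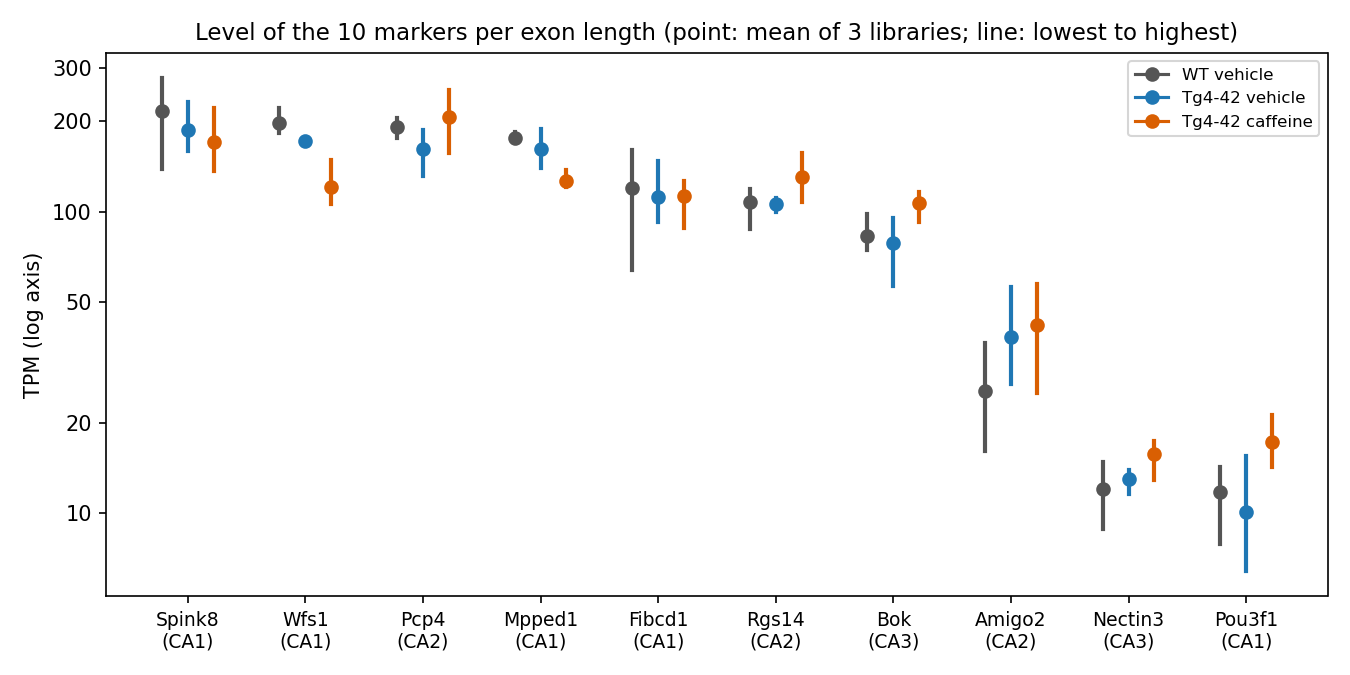
Level of each marker in TPM (log axis) in the 3 groups, with points for the mean of 3 libraries and lines from the lowest to the highest library. The order by WT mean runs from Spink8 at 216 TPM to Pou3f1 at 11.8 TPM, and the Wfs1 and Mpped1 lines of caffeine-treated Tg4-42 mice lie below those of both vehicle groups.

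Promoter sequence is shown for 2 CA1 markers and 1 CA2 marker, so that the starts of genes with different values below can be set side by side. It was taken from RefSeq (GRCm38.p6), which had an entry for 7 of the 10 markers, as the 250 bases before each start. Short promoter motifs were searched on both strands. TATAAA was present in 13.0% of 27025 promoters of the same length. The GC box, spelled GGGCGG, was present in 32.9%, and the letters CCAAT in 34.5%. The E-box, spelled CACGTG, was present in 6.05%, and the cAMP response element TGACGTCA in 1.62%. Capitals mark the matches, none of which overlap, and bases in annotated exons were left out, which leaves 209 bases at the first start of Mpped1.
Mpped1, first start, chr15:83779773-83779981, plus strand: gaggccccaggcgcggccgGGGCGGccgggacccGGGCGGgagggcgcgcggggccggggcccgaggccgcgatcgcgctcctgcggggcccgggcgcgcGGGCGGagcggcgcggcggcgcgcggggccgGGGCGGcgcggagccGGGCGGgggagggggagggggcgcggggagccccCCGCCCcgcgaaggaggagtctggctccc
Mpped1, second start, chr15:83784579-83784828, plus strand: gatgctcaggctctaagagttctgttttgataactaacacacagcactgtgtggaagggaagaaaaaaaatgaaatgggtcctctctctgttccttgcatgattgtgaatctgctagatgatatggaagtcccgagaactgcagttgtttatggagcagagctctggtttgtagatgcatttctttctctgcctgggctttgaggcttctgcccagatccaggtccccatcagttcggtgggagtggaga
Fibcd1, chr2:31846006-31846255, minus strand: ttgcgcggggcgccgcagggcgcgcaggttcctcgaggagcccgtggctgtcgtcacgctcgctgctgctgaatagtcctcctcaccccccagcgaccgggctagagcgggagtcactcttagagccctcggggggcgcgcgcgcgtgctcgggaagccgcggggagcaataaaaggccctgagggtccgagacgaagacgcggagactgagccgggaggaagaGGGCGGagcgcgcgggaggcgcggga
Pcp4, chr16:96467356-96467605, plus strand: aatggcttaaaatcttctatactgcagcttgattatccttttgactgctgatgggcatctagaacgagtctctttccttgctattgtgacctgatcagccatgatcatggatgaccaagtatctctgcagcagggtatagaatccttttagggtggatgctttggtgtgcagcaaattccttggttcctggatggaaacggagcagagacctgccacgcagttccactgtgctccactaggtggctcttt
The full 250-base window of the first Mpped1 start held 7 GC boxes at 88.8% G and C, whereas its second start and Pcp4 held none of the motifs, each at 46.8% G and C against a median of 52% over all promoters. Fibcd1 held 1 GC box at 71.6% G and C. At Wfs1, 223 of the 250 bases lie in an annotated exon, so they are not printed, and the window held 4 GC boxes and 1 CCAAT match. Pou3f1, Spink8 and Rgs14 had no entry. A match describes these letters only.

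Wfs1 was the marker with the clearest difference. It encodes wolframin, a membrane protein of the endoplasmic reticulum involved in calcium balance, and lies on chr5:36966104-36989205 (mm10, minus strand). WT libraries held 153, 203 and 163 CPM, vehicle-treated Tg4-42 libraries 142, 150 and 157 CPM, and caffeine-treated Tg4-42 libraries 128, 90.3 and 87.0 CPM. All 3 caffeine libraries were below all 6 vehicle libraries, and the vehicle groups overlapped. Mean levels were 173 ± 26.5, 150 ± 7.75 and 102 ± 22.5 CPM (SD, n = 3). Against WT, Wfs1 was lower in caffeine-treated Tg4-42 mice by a log2 fold change of -0.77 (SE 0.15, adjusted p = 0.0408, edgeR quasi-likelihood test), which corresponds to 0.587 of the WT level. Against vehicle-treated Tg4-42 mice it was -0.56 (SE 0.15), with an unadjusted p of 0.00218 and an adjusted p of 0.0916 in edgeR, and it passed the threshold in DESeq2 (adjusted p = 0.0271) and in limma-voom (adjusted p = 0.0225). Between vehicle-treated Tg4-42 and WT mice it was -0.21 (SE 0.15, edgeR adjusted p = 1.0).

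The Wfs1 difference between caffeine-treated Tg4-42 and WT mice did not pass the threshold with the lane in the edgeR model (adjusted p = 0.0607) or in lane 6 alone (log2 fold change -0.70, adjusted p = 0.427). It was also lost without WT replicate 2 (-0.64, adjusted p = 0.135), WT replicate 3 (-0.80, adjusted p = 0.0792), caffeine replicate 2 (-0.69, adjusted p = 0.121) or caffeine replicate 3 (-0.67, adjusted p = 0.341). It was kept without WT replicate 1 (adjusted p = 0.0436) or caffeine replicate 1 (adjusted p = 0.00831), and the latter omission also brought the difference from vehicle-treated Tg4-42 mice past the threshold (-0.76, adjusted p = 0.023). Its sign was negative in all of these fits.

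Mpped1, which encodes a metallophosphoesterase domain protein and lies on chr15:83779467-83858494 (mm10, plus strand), ranked next. WT libraries held 174, 183 and 167 CPM, vehicle-treated Tg4-42 libraries 152, 137 and 189 CPM, and caffeine-treated Tg4-42 libraries 118, 130 and 113 CPM. As for Wfs1, every caffeine library was below every vehicle library, while vehicle-treated Tg4-42 libraries lay on both sides of the WT libraries. With caffeine the log2 fold change was -0.54 against WT (SE 0.13, unadjusted p = 0.000773, edgeR adjusted p = 0.0761) and -0.41 against vehicle-treated Tg4-42 mice (SE 0.13, unadjusted p = 0.00646, edgeR adjusted p = 0.129). Leaving out 1 library gave -0.60 to -0.50 against WT and -0.50 to -0.25 against vehicle-treated Tg4-42 mice. The -0.25 was without vehicle-treated Tg4-42 replicate 3 (edgeR adjusted p = 0.522). In lane 6 alone the difference between the Tg4-42 groups was -0.21 (edgeR adjusted p = 0.903). The difference from WT passed the threshold in DESeq2 (adjusted p = 0.00716) and not in limma-voom (adjusted p = 0.0656). Means were 175 ± 8.08 CPM in WT, 159 ± 26.8 CPM in vehicle-treated and 120 ± 8.73 CPM in caffeine-treated Tg4-42 mice (SD, n = 3), and the vehicle groups differed by a log2 fold change of -0.13 (SE 0.13, edgeR adjusted p = 1.0).

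The other 3 CA1 markers were called in no comparison by the main edgeR fit, DESeq2 or limma-voom, and whether they differ from Wfs1 and Mpped1 was not tested. With no filter on low counts, edgeR called Pou3f1 higher with caffeine than in vehicle-treated Tg4-42 mice (adjusted p = 0.0426). Fibcd1 encodes a membrane receptor with a fibrinogen-like domain (chr2:31813290-31846005, mm10, minus strand). It held 143, 185 and 70.0 CPM in WT, 100, 159 and 106 CPM in vehicle-treated Tg4-42 and 95.2, 132 and 128 CPM in caffeine-treated Tg4-42 libraries. The groups overlapped fully, and WT libraries alone covered the values of all others. The log2 fold change with caffeine was -0.04 against vehicle-treated Tg4-42 mice (SE 0.33, edgeR adjusted p = 0.964), and 2 SE on either side reached from -0.69 to 0.61, so a change of the size seen for Wfs1 was not detectable for Fibcd1.

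Spink8, a member of the Kazal-type serine protease inhibitor family (chr9:109812280-109826633, mm10, plus strand), had 42.3, 55.4 and 26.1 CPM in WT, 29.6, 43.2 and 32.6 CPM in vehicle-treated Tg4-42 and 25.4, 40.0 and 27.5 CPM in caffeine-treated Tg4-42 libraries. Its mean was lowest with caffeine, at 30.9 ± 7.88 CPM against 41.3 ± 14.7 CPM in WT, and the groups overlapped. The corresponding log2 fold change was -0.41 (SE 0.25, edgeR adjusted p = 0.459).

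Pou3f1 encodes a POU-domain transcription factor of superficial CA1 cells and is the lowest of the 10 in counts (chr4:124656807-124660655, mm10, plus strand, a gene of 1 exon). It held 6.74, 13.4 and 11.6 CPM in WT, 5.62, 13.6 and 7.62 CPM in vehicle-treated Tg4-42 and 12.5, 13.9 and 17.7 CPM in caffeine-treated Tg4-42 libraries. It was the CA1 marker whose mean was higher with caffeine, although the lowest caffeine library was below the highest library of each vehicle group. Its log2 fold change was 0.70 against vehicle-treated Tg4-42 (SE 0.30, unadjusted p = 0.0381, edgeR adjusted p = 0.266) and 0.47 against WT (SE 0.30, edgeR adjusted p = 0.478). An antisense gene, Gm2164, overlaps 8.57% of its exonic bases. The strand setting of the counting is not given in the sources used here, so reads of both cannot be told apart there, and Gm2164 had 58 counts over the 9 libraries against 1441 for Pou3f1.

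**Figure D2:**
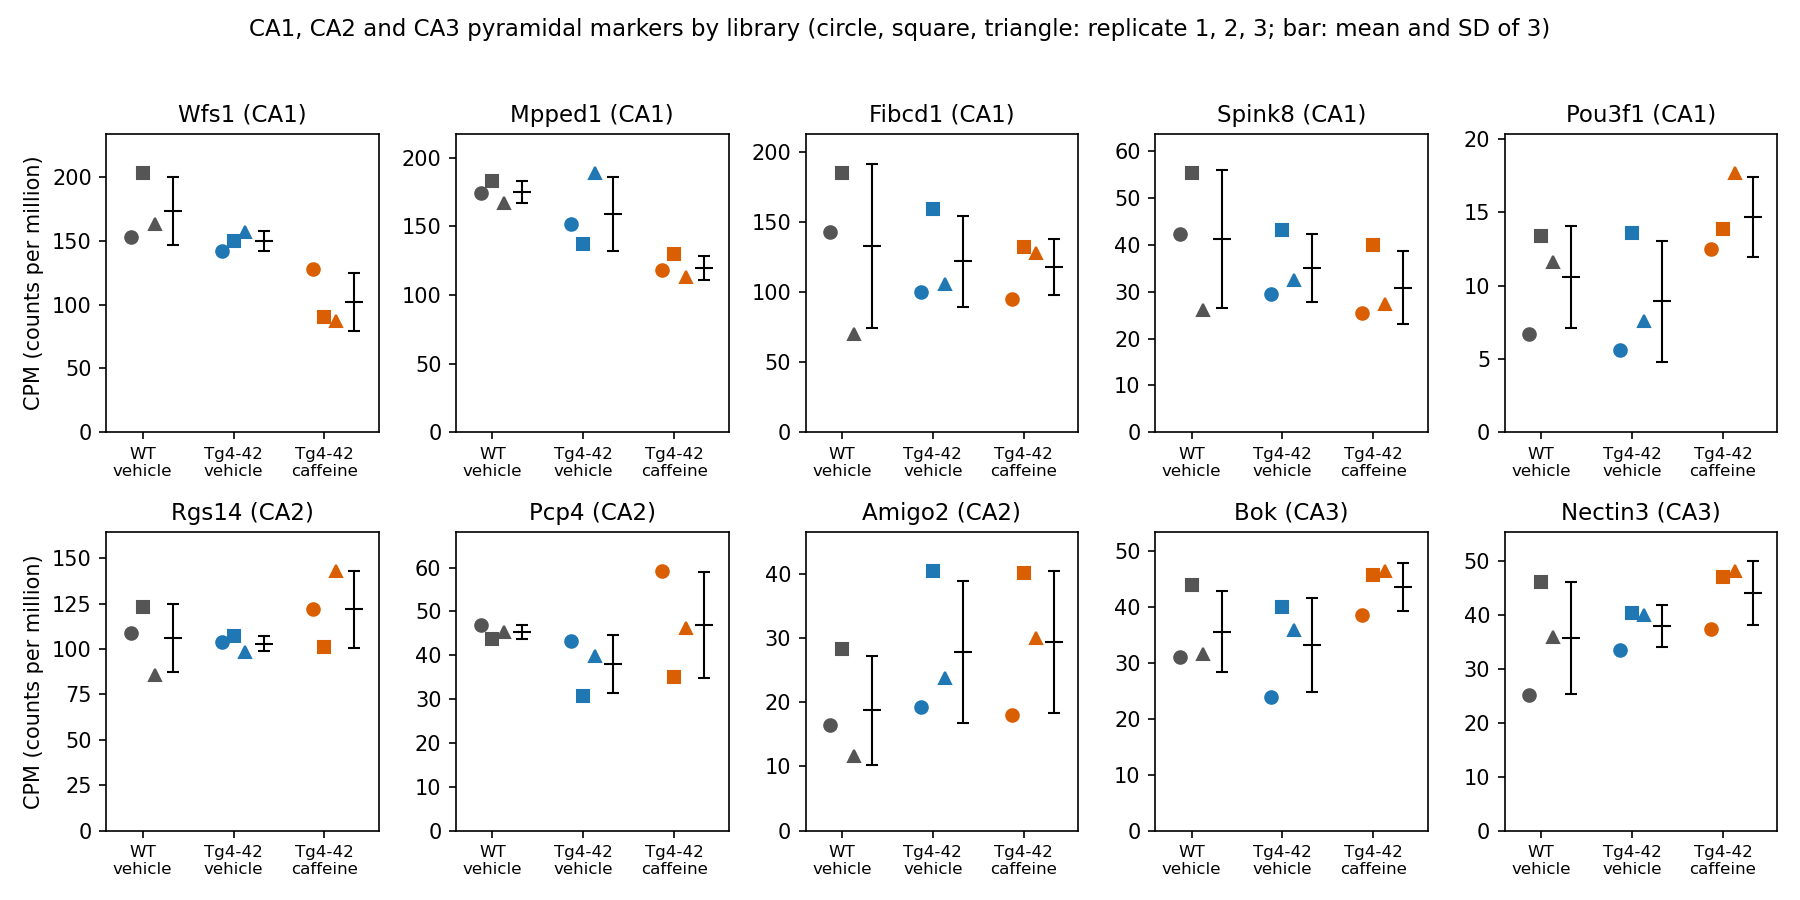
CPM of the 10 markers in each library, with 1 panel per gene, symbols for the replicate and a bar for the mean and SD of the 3 libraries of a group. In the Wfs1 and Mpped1 panels the 3 caffeine libraries lie below the 6 vehicle libraries, from 87.0 to 128 CPM and from 113 to 130 CPM, and in the other 8 panels the caffeine group overlaps with both vehicle groups.

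Among the CA2 markers, Rgs14 encodes a regulator of G-protein signalling that restrains synaptic plasticity in CA2 (chr13:55369732-55384687, mm10, plus strand). It held 109, 123 and 85.6 CPM in WT, 104, 107 and 98.7 CPM in vehicle-treated Tg4-42 and 122, 101 and 143 CPM in caffeine-treated Tg4-42 libraries. The highest library was caffeine-treated, and all groups overlapped. The log2 fold change with caffeine was 0.24 against vehicle-treated Tg4-42 (SE 0.15, edgeR adjusted p = 0.439) and 0.21 against WT (SE 0.15, edgeR adjusted p = 0.532).

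Pcp4 encodes a small calmodulin-binding protein (chr16:96467606-96525793, mm10, plus strand). It held 46.8, 43.6 and 45.4 CPM in WT, 43.3, 30.7 and 39.8 CPM in vehicle-treated Tg4-42 and 59.2, 35.1 and 46.3 CPM in caffeine-treated Tg4-42 libraries. WT libraries were close together and all above the vehicle-treated Tg4-42 libraries, with the nearest pair at 43.6 and 43.3 CPM, whereas caffeine libraries lay on both sides. Vehicle-treated Tg4-42 mice had a log2 fold change of -0.26 against WT (SE 0.17, edgeR adjusted p = 1.0), and caffeine-treated Tg4-42 mice one of 0.31 against vehicle-treated Tg4-42 mice (SE 0.17, edgeR adjusted p = 0.392). Another gene on the same strand, Igsf5, which was not used here, shares 23.7% of the exonic bases of Pcp4, so its values are uncertain to that extent.

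Amigo2 encodes an adhesion protein with leucine-rich repeats (chr15:97244125-97247287, mm10, minus strand). It held 16.4, 28.3 and 11.7 CPM in WT, 19.3, 40.5 and 23.8 CPM in vehicle-treated Tg4-42 and 18.0, 40.2 and 30.0 CPM in caffeine-treated Tg4-42 libraries. Both Tg4-42 groups had higher means than WT, 27.9 ± 11.1 and 29.4 ± 11.1 CPM against 18.8 ± 8.51 CPM, and all groups overlapped. Against WT the log2 fold change was 0.58 (SE 0.40, edgeR adjusted p = 1.0) for vehicle-treated and 0.64 (SE 0.40, edgeR adjusted p = 0.483) for caffeine-treated Tg4-42 mice. These were the largest positive values of the 10 markers against WT, and their SE was the largest too. Pced1b on the other strand overlaps 1.83% of the exonic bases of Amigo2.

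The CA3 markers were nearly level between the vehicle groups. Bok, a relative of the pro-apoptotic members of the BCL-2 family (chr1:93685660-93695764, mm10, plus strand), held 31.1, 44.0 and 31.6 CPM in WT, 23.8, 40.0 and 35.9 CPM in vehicle-treated Tg4-42 and 38.6, 45.8 and 46.4 CPM in caffeine-treated Tg4-42 libraries. The lowest library was vehicle-treated and the highest 2 were caffeine-treated, with an overlap of the groups. Its log2 fold change with caffeine was 0.38 against vehicle-treated Tg4-42 mice (SE 0.19, unadjusted p = 0.0555, edgeR adjusted p = 0.309).

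Nectin3, a cell adhesion protein of synaptic contacts (chr16:46387706-46498525, mm10, minus strand), held 25.1, 46.0 and 35.9 CPM in WT, 33.5, 40.3 and 40.0 CPM in vehicle-treated Tg4-42 and 37.3, 47.0 and 48.1 CPM in caffeine-treated Tg4-42 libraries. The 3 groups overlapped, and the lowest library was WT. The log2 fold change with caffeine was 0.22 against vehicle-treated Tg4-42 mice (SE 0.18, edgeR adjusted p = 0.597) and 0.30 against WT (SE 0.18, edgeR adjusted p = 0.448).

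Counted over the 10 markers, the genotype comparison between vehicle-treated Tg4-42 and WT mice gave no call in edgeR, DESeq2 or limma-voom at an adjusted p under 0.05, and none at an unadjusted p under 0.05 in edgeR. Over all tested genes these shares were 0.0979%, 0.0955%, 0.0922% and 2.74%, except that the DESeq2 share is over the 26182 genes given an adjusted p there. Groups did not overlap in 1 marker, Pcp4, against 6.73% of all tested genes. The log2 fold change was below 0 in 5 of 5 CA1 markers (median -0.21) and in 3 of 5 CA2 and CA3 markers (median -0.03), beside a median of 0.00 and 50.5% above 0 over all tested genes.

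Between caffeine-treated and vehicle-treated Tg4-42 mice, edgeR called 0 of the 10 markers at an adjusted p under 0.05, against 0.881% of all tested genes. DESeq2 and limma-voom each called 1, Wfs1, against 5.12% of the 14595 genes given an adjusted p in DESeq2 and 3.38% of all tested genes. At an unadjusted p under 0.05, edgeR had 3 markers (Wfs1 and Mpped1 lower, Pou3f1 higher) against 17% of all tested genes, and groups did not overlap in 2 (Wfs1 and Mpped1) against 23%. The median log2 fold change was -0.19 for the 5 CA1 markers, 4 of which were below 0, and 0.24 for the 5 CA2 and CA3 markers, all of which were above 0. Over all tested genes the median was -0.01 and 48.5% were above 0. Whether the CA1 markers and the CA2 and CA3 markers differ in their response was not tested.

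Between caffeine-treated Tg4-42 and WT mice, which shares its libraries with the other comparisons, edgeR called 1 marker, Wfs1, against 0.415% of all tested genes. DESeq2 called Wfs1 and Mpped1 against 4.11% of the 13440 genes given an adjusted p there, and limma-voom called Wfs1 against 0.72% of all tested genes. At an unadjusted p under 0.05 edgeR had these 2 markers against 15.4%, and the same 2 did not overlap between groups against 18.8%. The median log2 fold change was -0.41 for the CA1 markers and 0.29 for the CA2 and CA3 markers, beside -0.01 over all tested genes.

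**Figure D3:**
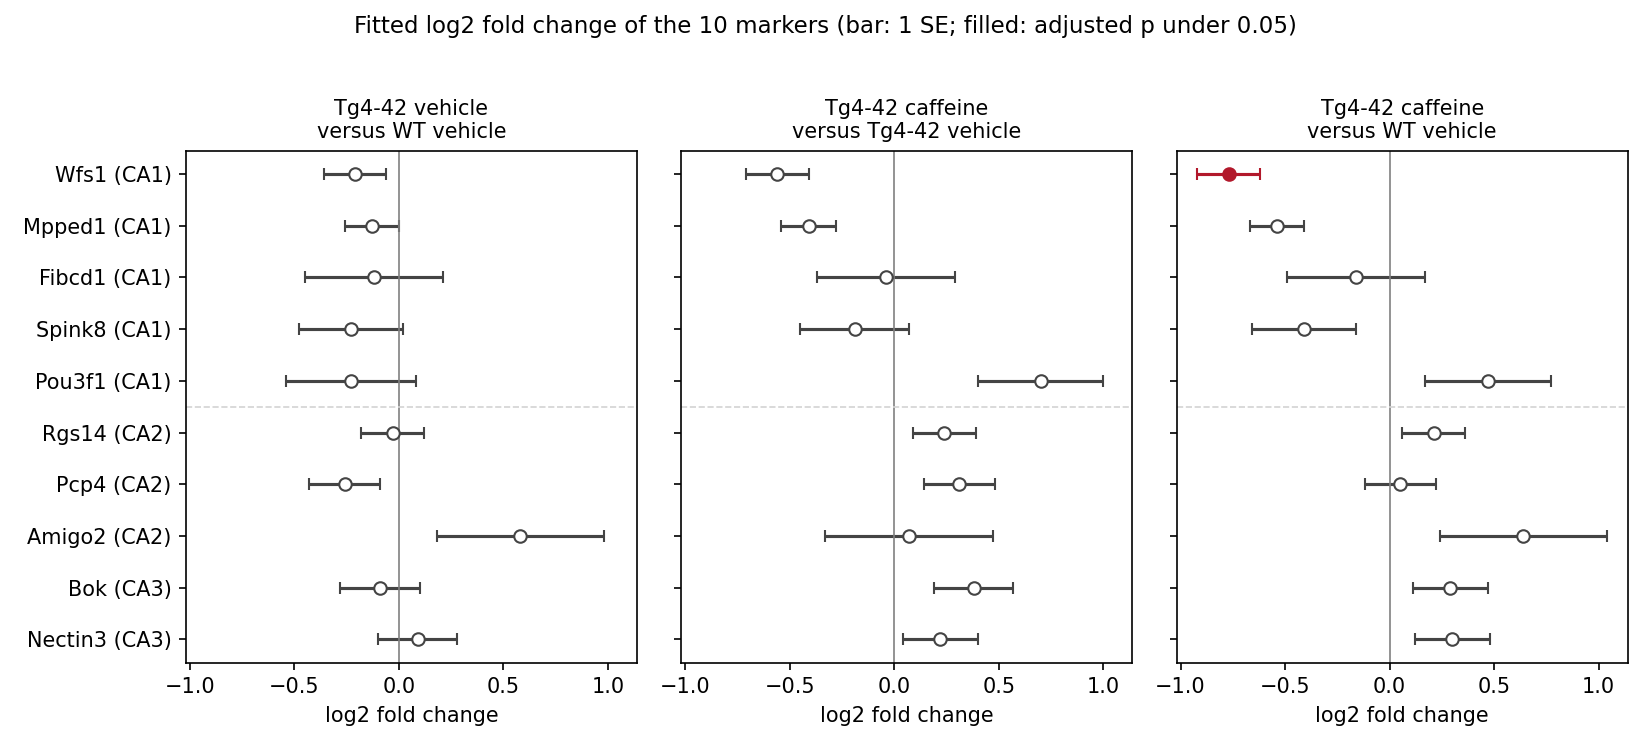
Fitted log2 fold change of each marker in the 3 comparisons, with bars of 1 SE and a filled point where the edgeR adjusted p was under 0.05. The filled point is Wfs1 against WT at -0.77, and with caffeine the CA2 and CA3 markers lie between 0.05 and 0.64.

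Summed over the 5 CA1 markers, CPM ranged from 438 to 640 in WT, from 429 to 503 in vehicle-treated Tg4-42 and from 373 to 406 in caffeine-treated Tg4-42 libraries. The caffeine libraries thus stood below all vehicle libraries in this sum, in which Wfs1, Mpped1 and Fibcd1 weigh most. Summed over the CA2 and CA3 markers, CPM ranged from 210 to 285, from 224 to 258 and from 269 to 314, respectively. Here caffeine libraries stood above vehicle-treated Tg4-42 libraries and overlapped with WT. The 10 markers together ranged from 648 to 925, from 653 to 761 and from 654 to 687 CPM, with overlap of all groups.

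The markers also varied between libraries of the same group. Fibcd1, Spink8 and Amigo2 were highest in replicate 2 in each of the 3 groups, and Pcp4 was lowest there each time, whereas Wfs1 was highest in a different replicate number in each group. Replicate numbers come from the library names, and what the libraries of one number share beside the lane is not given in the sources used here.

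Other genes used as markers of the same fields gave a mixed picture. Of 5 other CA1 genes (Man1a, Gpr161, Ccn3, Etv1 and Grp), all had a log2 fold change below 0 in caffeine-treated against vehicle-treated Tg4-42 mice (median -0.26) and none was called. Against WT, 4 of 5 were below 0 (median -0.27) and 1 was called. This was Ccn3, a secreted protein of the extracellular matrix, which had 334, 326 and 297 CPM in WT, 256, 234 and 327 CPM in vehicle-treated Tg4-42 and 142, 205 and 113 CPM in caffeine-treated Tg4-42 libraries. All caffeine libraries of Ccn3 were below all vehicle libraries, with a log2 fold change of -1.06 against WT (edgeR adjusted p = 0.0274) and -0.83 against vehicle-treated Tg4-42 mice (edgeR adjusted p = 0.0507).

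Of 6 tested among 7 other CA2 genes, none was called in any comparison, and the median log2 fold change of caffeine-treated against vehicle-treated Tg4-42 mice was -0.03. The 8 other CA3 genes had a median of 0.01 in that comparison, with 4 above 0 and 4 below 0. At an adjusted p under 0.05, 2 were called lower and none was called higher. Spock1, a secreted proteoglycan, had 157, 147 and 192 CPM in vehicle-treated and 90.8, 86.7 and 87.9 CPM in caffeine-treated Tg4-42 libraries (log2 fold change -0.90, edgeR adjusted p = 0.0385). Its WT libraries held 97.2, 102 and 154 CPM. Against WT, Spock1 was higher in vehicle-treated Tg4-42 mice (0.49, edgeR unadjusted p = 0.00772). With caffeine it was at -0.41 against WT (edgeR adjusted p = 0.243). Dkk3, a secreted protein of the Dickkopf family, had 797, 762 and 937 CPM in vehicle-treated and 647, 438 and 439 CPM in caffeine-treated Tg4-42 libraries (-0.71, edgeR adjusted p = 0.0499). Its WT libraries held 756, 886 and 902 CPM, and caffeine-treated Tg4-42 mice were at -0.74 against WT (edgeR adjusted p = 0.0551). Between the Tg4-42 groups no gene at all was called without vehicle-treated Tg4-42 replicate 3, without caffeine replicate 3 or in lane 6 alone. The calls of Spock1, Dkk3, and Plk5 and Slc32a1 below, were thus lost there.

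Genes of other cell types moved together with these results, and their part in them was not tested. The 10 dentate granule cell markers summed to 795 to 1050 CPM in WT, 647 to 1080 CPM in vehicle-treated Tg4-42 and 1220 to 1430 CPM in caffeine-treated Tg4-42 libraries. All 10 had a log2 fold change above 0 with caffeine against either vehicle group, and 1 was called, Plk5, against vehicle-treated Tg4-42 mice (1.52, edgeR adjusted p = 0.0385). The 7 neocortical markers ranged from 102 to 178, from 113 to 187 and from 80.1 to 129 CPM, and were below 0 in 7 of 7 against vehicle-treated Tg4-42 mice (median -0.57) and in 6 of 7 against WT (median -0.35), with none called. The 9 interneuron markers ranged from 977 to 1110, from 991 to 1490 and from 780 to 925 CPM, were below 0 in 8 of 9 against vehicle-treated Tg4-42 mice (median -0.49), and 1 was called lower there, the vesicular GABA transporter Slc32a1 (-0.93, edgeR adjusted p = 0.0462). No marker in these 3 lists was at 0 in any library. Glial markers were low in these sorted nuclei: the 5 astrocyte markers summed to 79.5 to 111, 87.5 to 98.0 and 64.7 to 82.4 CPM, the 5 oligodendrocyte markers to 290 to 434, 330 to 460 and 227 to 331 CPM and the 6 microglial markers to 24.2 to 34.3, 28.3 to 38.8 and 22.3 to 27.7 CPM in the 3 groups. Between the Tg4-42 groups the log2 fold change was below 0 in 4 of 5 astrocyte (median -0.80), 5 of 5 oligodendrocyte (median -0.76), 6 of 6 microglial (median -0.46) and 3 of 3 subicular markers (median -0.39), with none called.

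**Figure D4:**
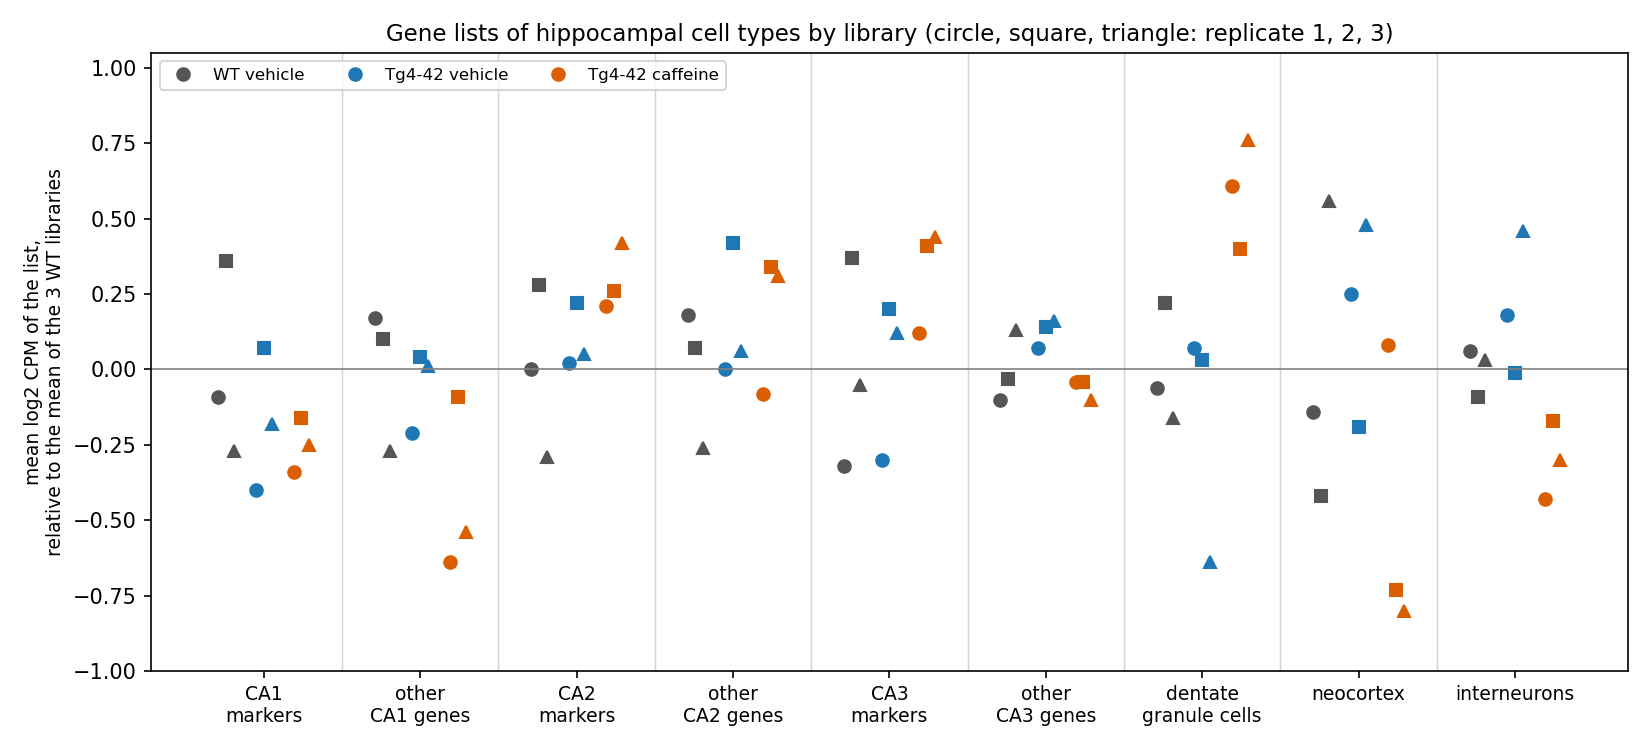
Mean log2 CPM of 9 gene lists in each library, relative to the mean of the 3 WT libraries, with colours for the group and symbols for the replicate. With caffeine the dentate granule cell list lies at 0.40 to 0.76 above all vehicle libraries, whereas the other CA1 genes at -0.64 to -0.09 overlap with the vehicle libraries and the CA1 markers at -0.34 to -0.16 lie within their range.

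Averaged on the log2 scale, where each gene weighs the same, the 5 CA1 markers lay at -0.34, -0.16 and -0.25 in caffeine-treated Tg4-42 libraries relative to WT, inside the range of vehicle-treated Tg4-42 libraries (-0.40 to 0.07). In this mean Pou3f1, which was above 0, weighs as much as Wfs1, Mpped1, Fibcd1 and Spink8, which were below 0 in both caffeine comparisons, and the lower end of the vehicle range is 1 library, vehicle-treated Tg4-42 replicate 1. The CA2 and CA3 markers lay at 0.18, 0.32 and 0.42 with caffeine and at -0.11, 0.21 and 0.08 in vehicle-treated Tg4-42 libraries, with overlap.

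The genes whose log2 CPM followed the mean of the CA1 markers most closely over the 9 libraries were Cd83 (Pearson r = 0.943), Galnt16 (0.915), Vrk2 (0.903), Anapc4 (0.893) and Gabra5 (0.889). The mean of the CA2 and CA3 markers was followed most closely by Mid1 (0.958), Eml3 (0.956), Pcbp3 (0.956), Sart3 (0.953) and Exosc3 (0.942). These values describe 9 libraries that share depth and nuclei with the markers, and they are the highest among all tested genes outside the lists.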

How the data were processed

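Nuclei of frozen hippocampi were stained for NeuN, sorted and sequenced as single-end reads of 50 bases. The authors aligned the reads to mm10 (GRCm38) with STAR and deposited raw counts of exonic reads per Ensembl gene, made with featureCounts, in 1 table per library. Groups came from the labels. Symbols were found for 48349 of 48709 genes. Each library had 9342945 to 16376922 counts.

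Genes were kept by filterByExpr (minimum count 10, minimum total count 15) and normalised by TMM. A quasi-likelihood model was fitted to all 9 libraries in edgeR 4.0.16 (R 4.3.3), with contrasts between groups and Benjamini-Hochberg adjustment over 17361 genes at 0.05. SE was the log2 fold change over the square root of F. CPM used the library total times the TMM factor, and log2 CPM a prior count of 2. TPM used the summed exon length in GENCODE M21. DESeq2 1.42.0, limma 3.58.1 (voom with quality weights), RLE factors, other filters, 2 groups alone, the lane or the replicate number as a term and leaving out each library were alternatives. Lane 6 alone was added after seeing the data. The scripts were tested on simulated counts.

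The 10 markers and all lists were chosen with earlier results of these data known. All 10 markers are named in each comparison. By the rule, of other lists the genes called and the 3 with the highest mean CPM could be named, of which the text names those a result turns on, and beside these only what a list holds. As like patterns it names the 5 tested genes outside the lists with the highest r. An item of 1 list is not reported here. No 2 libraries were alike within sampling noise (chi-square per gene 8.98 to 21.1 between libraries of a group). Deviations from the group means of libraries with the same number correlated at 0.188, 0.138 and 0.156 between the vehicle groups, at 0.152, 0.181 and -0.171 between the Tg4-42 groups and at -0.17, 0.00751 and -0.106 between caffeine-treated Tg4-42 and WT. Between the vehicle groups each pair was over 0.1, so the number in the library names may pair them. The main fit held no term for this number, so its SE and p-values do not use such a pairing. With the number as a block, an alternative, no call of a marker changed.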

Additional observations from a re-analysis of the deposited data

How the results depend on the processing

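The log2 fold changes of Wfs1 and Mpped1 with caffeine were negative under every alternative run, whereas their calls depended on the alternative. Against vehicle-treated Tg4-42 mice, markers called went from 0 to 1 in DESeq2 and in limma-voom (Wfs1), to 2 with no filter on low counts (Wfs1 and Pou3f1), and to 0 to 1 with 1 library left out. Against WT, they went from 1 to 2 in DESeq2, 3 with no filter (Wfs1, Mpped1 and Amigo2), 0 with the lane as a covariate, 0 in lane 6 alone, and 0 to 1 with 1 library left out. Over all genes, the 17 calls between the vehicle groups became 74 with no filter. The 153 calls between the Tg4-42 groups became 747 in DESeq2, 987 with no filter, 587 in limma-voom, 9 with the lane as a covariate, 0 in lane 6 alone and 0 to 341 with 1 library left out (0 without vehicle-treated Tg4-42 replicate 3 or caffeine replicate 3, 3 without vehicle-treated Tg4-42 replicate 1, 58 without caffeine replicate 2, 341 without caffeine replicate 1). The 72 calls between caffeine-treated Tg4-42 and WT became 553, 860, 125, 42 and 17 under the same settings and 16 to 287 with 1 library left out (lowest without caffeine replicate 3, highest without caffeine replicate 1). The cause was not tested, except that lane 6 alone holds fewer libraries. With the replicate block, calls were 16, 187 and 82 in the 3 comparisons and marker calls 0, 0 and 1.

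No called value changed sign. Among values that were not called, limma-voom turned Fibcd1 to 0.03, 0.01 and 0.04 in the 3 comparisons, Rgs14 to 0.00 between the vehicle groups and Pcp4 to -0.04 against WT, and lane 6 alone turned Amigo2 to -0.03 between the Tg4-42 groups and Rgs14 to -0.05 against WT. Leaving out 1 library gave, between the vehicle groups, -0.44 to 0.20 for Fibcd1, -0.68 to 0.00 for Pou3f1, -0.48 to 0.05 for Spink8, -0.25 to 0.09 for Bok, -0.11 to 0.31 for Nectin3 and -0.18 to 0.09 for Rgs14. Between the Tg4-42 groups it gave -0.16 to 0.21 for Fibcd1, -0.41 to 0.00 for Spink8 and -0.23 to 0.45 for Amigo2, and between caffeine-treated Tg4-42 and WT -0.47 to 0.15 for Fibcd1 and -0.15 to 0.22 for Pcp4.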
